A study of Mus musculus with 8 samples.

Results

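The BCL2 family sets the mitochondrial threshold for apoptosis. Its anti-apoptotic members (BCL2, BCL-XL, MCL1 and A1) hold back the pore-forming effectors BAX and BAK, and the BH3-only members, such as BIM and NOXA, release that block by binding the anti-apoptotic proteins. Neutrophils are short-lived cells that depend on the labile protein MCL1, and A1 is an NF-κB target of activated haematopoietic cells.

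Transcripts of 10 genes of this family were followed across 4 myeloid cell populations. They were the anti-apoptotic genes Bcl2, Bcl2l1 (BCL-XL), Mcl1 and the A1 paralogs Bcl2a1a, Bcl2a1b and Bcl2a1d, the BH3-only genes Bcl2l11 (BIM) and Pmaip1 (NOXA), and the effectors Bax and Bak1. They were taken by gene symbol from a table of 54188 genes, and all 10 were found and passed the filter on low counts that left 17650 genes.

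RNA-seq counts were available for CD11b+Gr-1hi cells, labelled G-MDSC, and CD11b+Gr-1lo cells, labelled M-MDSC, from the spleen (SP) and bone marrow (BM), with 2 libraries in each of the 4 groups. All came from sanroque mice of about 20 weeks, which are homozygous for the san allele of Roquin on a C57BL/6 background and develop lupus-like autoimmunity. No wild-type library was used here, so every group shares the mutation and no value below bears on its effect. The Gr-1hi and Gr-1lo populations were separated by surface staining, and the labels do not say which libraries share a mouse or whether cells of several mice were pooled.

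Total counts lay between 33453580 and 68316154 per library, and 3 counts corresponded to 0.0348 to 0.124 CPM, counts scaled to a library of 1000000. The granulocyte antigen gene Ly6g was at 330 to 801 CPM in the 4 Gr-1hi libraries and 3.07 to 8.23 CPM in the 4 Gr-1lo libraries, and Itgam, which encodes CD11b, was at 734 to 4904 CPM throughout. Csf1r, the receptor for the monocyte growth factor, was at 436 to 754 CPM in Gr-1lo libraries against 133 to 375 CPM in Gr-1hi libraries. The sex-linked transcripts went against the label in most libraries, since all are labelled female and the Y-linked gene Ddx3y was at 33.7 to 82.6 CPM in 7 of 8 and at 0 only in library 5. Xist was at 363 CPM in library 5 and 209 CPM in library 7, and at 5 counts or fewer in the other 6. Libraries 5 (SP Gr-1hi) and 7 (SP Gr-1lo) therefore stand apart from the rest, and calls that change without them are given as such. Replicate libraries differed by far more than counting noise in every group, their chi-square over its degrees of freedom being 20.7 to 74.3.

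The 3 A1 paralogs are near-identical copies within a short stretch of mouse chromosome 9, and how their reads were separated bears on every value for them. In GRCm38, Bcl2a1d lies at chr9:88723285-88731914 on the minus strand, Bcl2a1a at chr9:88956900-88962419 on the plus strand and Bcl2a1b at chr9:89199209-89207827 on the plus strand. Their coding sequences are each 519 bases long and differ from one another at 6 to 11 positions, an identity of 97.9% to 98.8%. Of the 12 coding positions at which the 3 are not all alike, 6 fall in the first 60 bases. These are printed below from the GENCODE M21 transcripts, with the differing bases in capitals, because they show how few bases can assign a read to one paralog.
Bcl2a1a: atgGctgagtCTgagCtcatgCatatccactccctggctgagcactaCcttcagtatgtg
Bcl2a1b: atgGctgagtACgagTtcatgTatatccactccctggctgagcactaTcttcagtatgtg
Bcl2a1d: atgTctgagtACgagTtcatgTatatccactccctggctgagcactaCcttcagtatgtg

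Elsewhere the coding sequences run for up to 217 bases without a difference, which is longer than the 101 bases of 1 read. Of all 101-base windows of the transcript, 43.1% for Bcl2a1a, 56.4% for Bcl2a1b and 54.0% for Bcl2a1d also occur in a transcript of another gene. Counting only other A1 paralogs, the share is 30.5% for Bcl2a1b and unchanged for Bcl2a1a and Bcl2a1d. The rest of the shared windows of Bcl2a1b occur only in Gm29094, a gene described below. A read from such a window can be placed only through its mate, and whether ambiguous reads were dropped or shared is not given in the sources used here. Bcl2a1c, a further copy, had 0 counts in 7 libraries and 5 in library 8. The paralogs are therefore also given as 1 sum, named Bcl2a1 below.

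A further limit applies to Bcl2a1b and to Bax. Over 49.1% of its exon bases (401 of 817), Bcl2a1b overlaps the same-strand gene Gm29094, which shares most of the first Bcl2a1b exon and continues downstream. Bax overlaps the same-strand gene Gm45808 over 192 bases, or 12.2% of its exon bases. Strand-specific counting does not separate genes on the same strand. Gm29094 carried 212 to 1601 counts per library and Gm45808 carried 98 to 2163.

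The stretches before the annotated start of the paralogs are also near-copies, and they are shown to complete the comparison of the copies. Whether they bear on the levels of the 3 genes was not tested. The 130 bases before each GENCODE start were read from the RefSeq promoter table (build GRCm38.p6), from chr9:88956770-88956899 on the plus strand for Bcl2a1a, chr9:89199079-89199208 on the plus strand for Bcl2a1b and chr9:88731915-88732044 on the minus strand for Bcl2a1d. Capitals mark GAGGAAGT, a core bound by ETS factors such as PU.1 of the myeloid lineage.
Bcl2a1a: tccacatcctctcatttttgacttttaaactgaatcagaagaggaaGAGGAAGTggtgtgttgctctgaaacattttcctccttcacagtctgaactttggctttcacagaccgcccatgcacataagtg
Bcl2a1b: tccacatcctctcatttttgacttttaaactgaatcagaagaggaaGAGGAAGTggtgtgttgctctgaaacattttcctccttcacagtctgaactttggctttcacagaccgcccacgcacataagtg
Bcl2a1d: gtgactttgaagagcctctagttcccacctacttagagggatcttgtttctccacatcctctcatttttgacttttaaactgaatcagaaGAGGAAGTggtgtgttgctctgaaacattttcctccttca

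On either strand, GAGGAAGT occurred in 3.2% of the 32851 promoter windows of 300 bases, and among the members in all 3 A1 paralogs and Bak1. This is a match of letters and says nothing of binding.

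Levels are given first as CPM scaled by TMM, a correction for the composition of the libraries, library by library. The plot of CPM by library shows that the members fell into a set that mainly followed the Gr-1 class (Mcl1, Bcl2l1, Bax and Bak1) and a set in which the tissue mattered as well (the A1 paralogs, Bcl2, Bcl2l11 and Pmaip1).

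**Figure D1:**
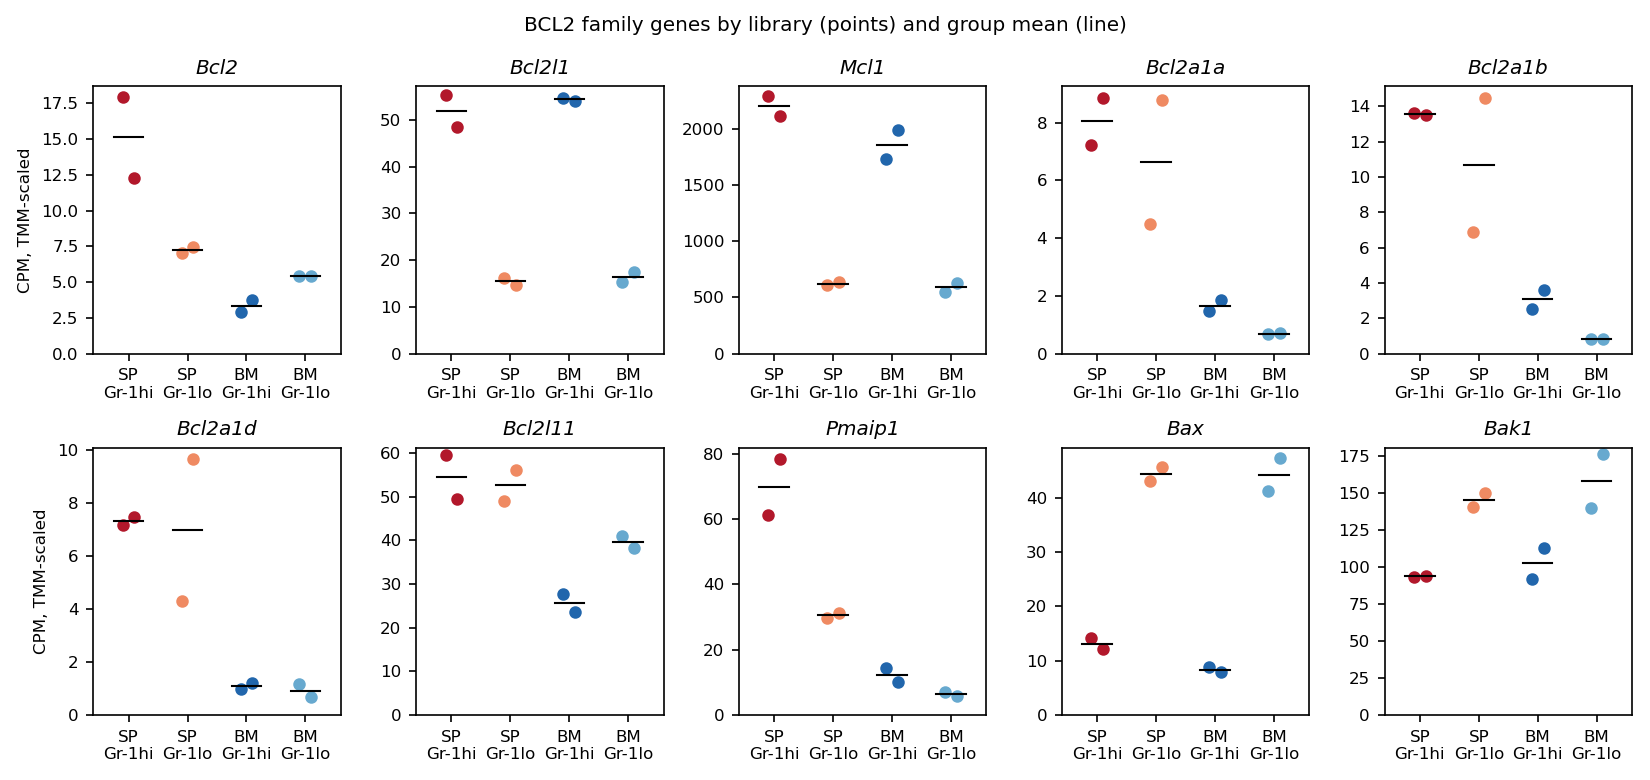
TMM-scaled CPM of the 10 genes in each of the 8 libraries. Points are libraries, 2 per group, black lines are group means, and each vertical axis is linear, starts at 0 and has its own scale. Mcl1 and Bcl2l1 are high in both Gr-1hi groups, Bax is high in both Gr-1lo groups, and Pmaip1 and the A1 paralogs are high in both SP groups.

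Mcl1 (chr3:95658788-95663176) was by far the most abundant anti-apoptotic transcript. It was at 2294 and 2117 CPM in SP Gr-1hi, 610 and 635 CPM in SP Gr-1lo, 1728 and 1989 CPM in BM Gr-1hi, and 548 and 628 CPM in BM Gr-1lo. Every Gr-1hi library was thus above every Gr-1lo library, while the SP and BM libraries of the Gr-1lo class overlapped. Bcl2l1 (chr2:152780668-152831728) had the same order at a much lower level. It was at 55.3 and 48.5 CPM in SP Gr-1hi, 54.8 and 54.2 CPM in BM Gr-1hi, 16.1 and 14.8 CPM in SP Gr-1lo, and 15.2 and 17.5 CPM in BM Gr-1lo, and the tissues overlapped within each class.

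Bcl2 (chr1:106538178-106714274), the founding anti-apoptotic gene, was low throughout. It was at 18.0 and 12.3 CPM in SP Gr-1hi, 7.01 and 7.43 CPM in SP Gr-1lo, 5.43 and 5.42 CPM in BM Gr-1lo, and 2.92 and 3.72 CPM in BM Gr-1hi. No 2 groups overlapped, and the Gr-1hi class held both the highest and the lowest group. The 2 SP Gr-1hi libraries lay farther apart than those of any other group.

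The summed A1 paralogs were at 28.0 and 29.9 CPM in SP Gr-1hi, 15.7 and 32.9 CPM in SP Gr-1lo, 4.97 and 6.65 CPM in BM Gr-1hi, and 2.68 and 2.19 CPM in BM Gr-1lo. All 4 SP libraries were above all 4 BM libraries, and library 8 of SP Gr-1lo was above library 7 by more than any BM library measured in all. The same gap ran through Bcl2a1a (4.47 and 8.78 CPM in SP Gr-1lo), Bcl2a1b (6.90 and 14.5 CPM) and Bcl2a1d (4.31 and 9.64 CPM). Of the counts over the 3 paralogs, Bcl2a1b took 44.0% to 54.0% in 6 libraries, and 31.3% and 37.1% in BM Gr-1lo, where the 3 together had only 131 and 116 counts.

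Pmaip1, a p53 target whose product NOXA binds MCL1 and A1, was at 61.4 and 78.3 CPM in SP Gr-1hi, 29.8 and 31.2 CPM in SP Gr-1lo, 14.5 and 10.2 CPM in BM Gr-1hi, and 6.97 and 5.74 CPM in BM Gr-1lo. Its 4 groups did not overlap, and their means of log2 CPM spanned 3.45 units. The A1 sum spanned 3.58, with Bcl2a1b at 4.04, Bcl2a1a at 3.54 and Bcl2a1d at 3.04, and Bax spanned 2.42. Bcl2l11 (chr2:128126038-128162547), whose product BIM binds all anti-apoptotic members, was at 59.5 and 49.4 CPM in SP Gr-1hi, 48.9 and 56.2 CPM in SP Gr-1lo, 40.9 and 38.2 CPM in BM Gr-1lo, and 27.7 and 23.5 CPM in BM Gr-1hi. The 2 SP groups overlapped, and BM Gr-1hi was lowest.

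Bax (chr7:45461697-45466898) was at 43.1 and 45.6 CPM in SP Gr-1lo, 41.3 and 47.3 CPM in BM Gr-1lo, 14.1 and 12.2 CPM in SP Gr-1hi, and 8.79 and 7.84 CPM in BM Gr-1hi. Both Gr-1lo groups overlapped and lay well above both Gr-1hi groups. Bak1 (chr17:27019810-27029009) had the narrowest range, 0.74 units between group means of log2 CPM. It was at 140 and 150 CPM in SP Gr-1lo, 140 and 176 CPM in BM Gr-1lo, 93.3 and 94.1 CPM in SP Gr-1hi, and 91.9 and 113 CPM in BM Gr-1hi.

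The first comparison asked how the splenic cells differ from their BM counterparts. Among Gr-1hi cells, 6 of the 10 genes were higher in SP and none was lower, by edgeR's quasi-likelihood test with 2-fold as the least change and 0.05 as the highest adjusted p, a rule that called 15.5% of all genes (14% higher and 1.48% lower). At any fold, 7 of the 10 and 34% of all genes passed the adjusted p. The median log2 fold change over the 10 was 1.62, against 0.03 over all genes tested. The 3 A1 paralogs, which are not independent genes here, were all among the 6 and each enters this median. Pmaip1 had a log2 fold change of 2.50 (SE 0.19, adjusted p = 0.000147), Bcl2 of 2.19 (SE 0.22, adjusted p = 0.000356) and Bcl2l11 of 1.09 (SE 0.13, adjusted p = 0.000816). The Bcl2l11 value fell under 2-fold without library 5 (0.87), without library 10 (0.87), without libraries 5 and 7 (0.96) and with limma on TPM (0.77).

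The A1 paralogs rose in the same comparison, Bcl2a1d by 2.76 (SE 0.44, adjusted p = 0.00277), Bcl2a1a by 2.28 (SE 0.34, adjusted p = 0.00204) and Bcl2a1b by 2.15 (SE 0.34, adjusted p = 0.00284). Their sum rose by 2.32 (SE 0.34, adjusted p = 0.00222). When Bcl2a1b was counted together with Gm29094, its log2 fold change was 0.84 (adjusted p = 0.0289) and no longer reached 2-fold, since Gm29094 itself was at 28.6 and 28.1 CPM in SP Gr-1hi and 21.7 and 19.1 CPM in BM Gr-1hi. Neither Bcl2a1a nor Bcl2a1d overlaps Gm29094 in the annotation, although both share sequence with it.

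The other 4 genes did not pass. Bax was higher in SP by 0.66 (SE 0.13, adjusted p = 0.00544), below 2-fold. The log2 difference was 0.25 for Mcl1 (95% interval -0.005 to 0.50, adjusted p = 0.116), -0.07 for Bcl2l1 (interval -0.32 to 0.18) and -0.13 for Bak1 (interval -0.43 to 0.18). Each of these intervals stays under a 2-fold change.

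Among Gr-1lo cells, 4 of the 10 genes were higher in SP and none was lower, where 4.06% of all genes were called (3.84% higher and 0.215% lower). They were Bcl2a1b with 3.70 (SE 0.37, adjusted p = 0.00107), Bcl2a1a with 3.27 (SE 0.35, adjusted p = 0.00122), Bcl2a1d with 2.93 (SE 0.41, adjusted p = 0.00482) and Pmaip1 with 2.26 (SE 0.19, adjusted p = 0.000483). At any fold the same number passed, against 5.58% of all genes. The 3 paralogs are not independent genes here, so the 4 calls stand for A1 and NOXA. The A1 sum rose by 3.32 (SE 0.35, adjusted p = 0.00151), and Bcl2a1b counted with Gm29094 by 2.27 (adjusted p = 0.00177). Bcl2l11 differed by 0.41 (95% interval 0.12 to 0.71, adjusted p = 0.121) and Bcl2 by 0.41 (interval -0.04 to 0.87, adjusted p = 0.293), while Mcl1, Bcl2l1, Bax and Bak1 lay between -0.12 and 0.08. The median over the 10 genes was 0.41, against -0.01 over all genes.

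**Figure D2:**
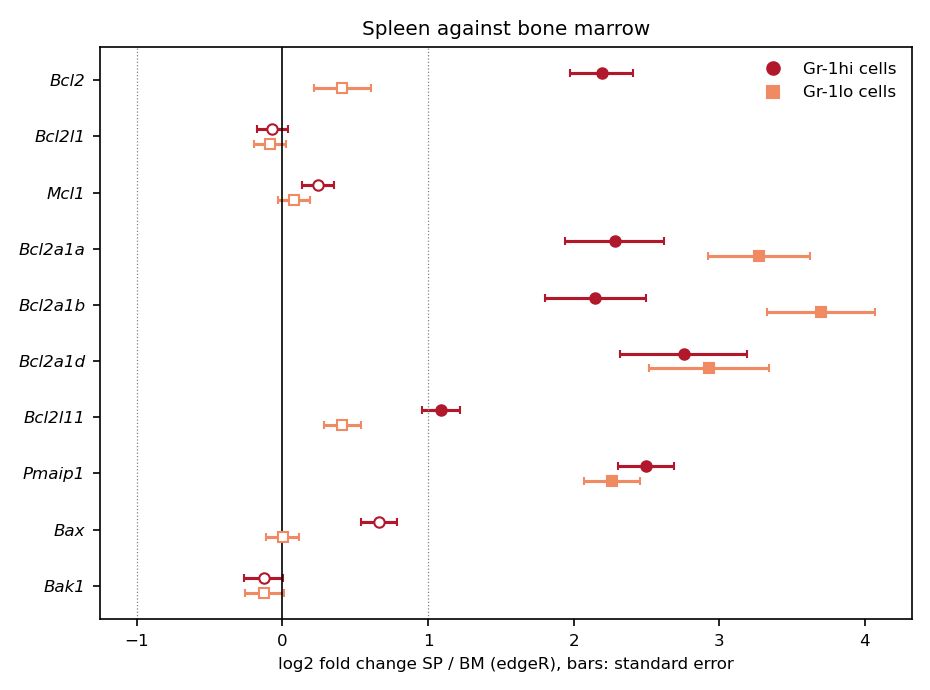
Log2 fold change of SP over BM (horizontal axis) for the 10 genes, in Gr-1hi cells (dark circles) and Gr-1lo cells (light squares), with standard errors from edgeR. Filled symbols were called, at 2-fold (dotted lines) or more. Pmaip1 and the A1 paralogs lie beyond 2 log2 units in both classes, and Bcl2 only in Gr-1hi cells, at 2.19 against 0.41.

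Transcripts of other cell types also differed between the tissues. Summed over 10 B cell markers, CPM was 537 and 360 in SP Gr-1hi, 66.7 and 83.8 in SP Gr-1lo, 19.9 and 16.3 in BM Gr-1hi, and 8.07 and 9.90 in BM Gr-1lo, with Cd22 the most abundant. Summed over 10 T cell markers, led by Lck and Cd4, it was 106 and 65.5, 23.3 and 35.3, 10.0 and 7.02, and 2.15 and 2.27 in the same order. All 10 B cell markers and 9 of 10 T cell markers were called higher in SP among Gr-1hi cells, and 9 and 10 of them among Gr-1lo cells. Over all genes, 14% and 3.84% were called higher in these comparisons. Bcl2 is well expressed in lymphocytes. Within SP Gr-1hi, Bcl2, the B cell markers and the T cell markers were all higher in library 5 than in library 6, and Pmaip1 and the A1 sum were higher in library 6. Within SP Gr-1lo, Bcl2, Pmaip1, the A1 sum and both marker sums were all higher in library 8 than in library 7. The part of these cells in the results for Bcl2, Pmaip1 and Bcl2a1 was not tested.

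Markers of several further cell types also differed between the tissues, though not every list or marker did. Over all genes, 14% were called higher and 1.48% lower in SP among Gr-1hi cells. Among Gr-1lo cells these shares were 3.84% and 0.215%. Plasma cell markers summed to 45.2 to 133 CPM in SP and 8.55 to 12.0 CPM in BM libraries, and dendritic cell markers to 16.0 to 29.8 and 5.55 to 8.32 CPM. Of the 7 dendritic cell markers, 3 were called higher and 1 lower in SP among Gr-1hi cells. Among Gr-1lo cells, 2 were called higher and none lower. Dnase1l3 alone was at 8.80 to 20.3 CPM in SP and 0.389 to 0.784 CPM in BM libraries. Splenic macrophage markers summed to 72.3 to 119 CPM in SP and 41.4 to 58.7 CPM in BM, and erythroid markers to 167 to 734 and 7.70 to 44.1 CPM. Of the 6 macrophage markers, 4 were called higher in SP among Gr-1hi cells and 5 among Gr-1lo cells, and none lower. Vcam1, the most abundant of the 6, was at -0.49 in Gr-1lo cells and not called (adjusted p = 0.273). NK cell markers, led by Gzma and Klrb1c, summed to 10.8 CPM or less in every library. Of these 5 markers, 4 were called higher in SP among Gr-1hi cells and 2 among Gr-1lo cells. Eosinophil and basophil markers, led by Siglecf and Prg2, summed to 44.4 and 35.5 CPM in SP Gr-1hi and 53.3 and 29.8 CPM in BM Gr-1hi. In Gr-1lo cells they summed to 14.9 and 12.8 CPM in SP and 13.6 and 10.9 CPM in BM. Of these 6, 1 was called higher and 2 lower in SP among Gr-1hi cells, and 1 lower among Gr-1lo cells. Early granulocyte markers, led by Mpo and Elane, summed to 1128 to 3162 CPM in Gr-1lo and 8.20 to 38.0 CPM in Gr-1hi libraries. Neutrophil markers, led by S100a9 and S100a8, summed to 68264 and 86230 CPM in SP Gr-1hi and 111954 and 122850 in BM Gr-1hi, and to 8765 and 7598 CPM in SP Gr-1lo and 3696 and 3861 in BM Gr-1lo. Among Gr-1lo cells, 2 of the 8 were called higher in SP and none lower, and among Gr-1hi cells 1 was lower. Monocyte markers, led by Fn1 and Ly6c2, summed to 1050 and 1173 CPM in SP Gr-1hi and 1327 and 1754 CPM in BM Gr-1hi. In Gr-1lo cells they summed to 6657 and 6546 CPM in SP and 9909 and 9016 CPM in BM. Among Gr-1hi cells, 3 of the 8 were called higher in SP and none lower, while Ly6c2 was lower below 2-fold (-0.90, adjusted p = 0.0162). The part of these cells in the SP values of A1 and Pmaip1 was not tested. In a bulk library, more cells of a type and more RNA per cell cannot be told apart.

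**Figure D3:**
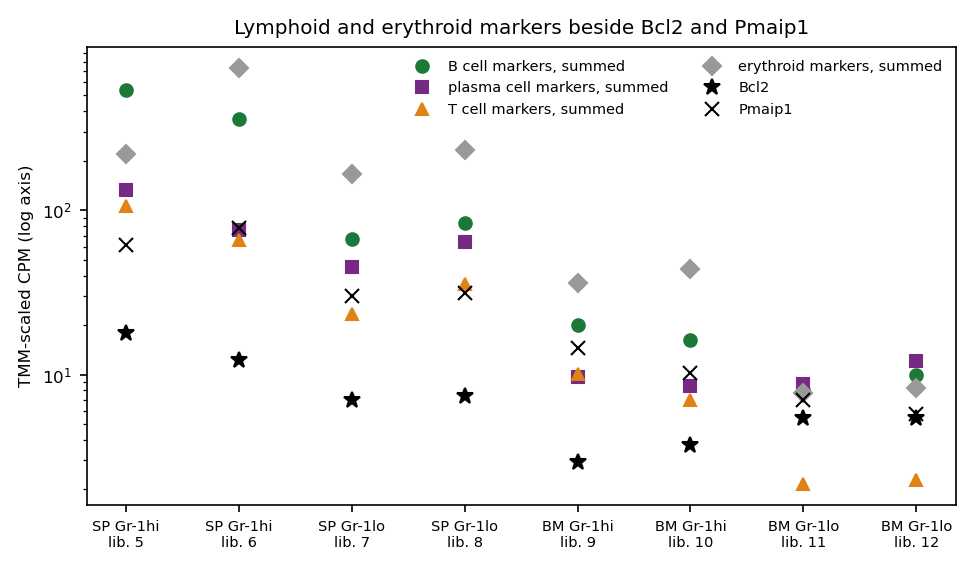
TMM-scaled CPM on a log axis in each of the 8 libraries, for Bcl2, Pmaip1 and the summed markers of B cells, plasma cells, T cells and erythroid cells. Every summed list and Pmaip1 are higher in each SP library than in any BM library. Bcl2 is highest in SP Gr-1hi libraries, where B cell markers sum to 537 and 360 CPM.

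The next comparison was of the granulocytic against the monocytic population within a tissue. In BM, 4 of the 10 genes were called higher and 1 lower in Gr-1hi cells, in a comparison that called 57.3% of all genes (24.2% higher and 33.1% lower), so that the count itself does not set the family apart. At any fold, 9 of the 10 and 75.7% of all genes passed, and at more than 8-fold with an adjusted p below 0.01 none of the 10 and 16.7% of all genes did. Mcl1 was higher by 1.66 (SE 0.11, adjusted p = 2.03e-06) and Bcl2l1 by 1.74 (SE 0.11, adjusted p = 1.48e-06). Bax was lower, with a log2 fold change of -2.41 (SE 0.13, adjusted p = 5.08e-07). Bcl2a1b was higher by 1.88 (SE 0.40, adjusted p = 0.00243) and Bcl2a1a by 1.26 (SE 0.39, adjusted p = 0.0163), whereas Bcl2a1d differed by 0.23 (SE 0.48, adjusted p = 0.674). The A1 sum was higher by 1.25 (SE 0.36, adjusted p = 0.0135), but the adjusted p was 0.0676 when library 10 was left out and 0.0832 when library 12 was. Bcl2a1a lost its call when library 10, 11 or 12 was left out (adjusted p = 0.0721, 0.0648 and 0.0603), and each paralog rests on fewer than 90 counts per BM library.

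The other members passed in BM below 2-fold. Pmaip1 was higher in Gr-1hi cells by 0.96 (adjusted p = 0.00182), and Bcl2 (-0.71, adjusted p = 0.0155), Bcl2l11 (-0.63, adjusted p = 0.00222) and Bak1 (-0.63, adjusted p = 0.00245) were lower.

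In SP, 4 of the 10 genes were higher and 1 lower in Gr-1hi cells, where 49.6% of all genes were called (22.3% higher and 27.4% lower). At any fold, 6 of the 10 and 71.4% of all genes passed, and at more than 8-fold with an adjusted p below 0.01 none of the 10 and 7.37% of all genes did. Mcl1 was higher by 1.82 (SE 0.11, adjusted p = 2.55e-06), Bcl2l1 by 1.75 (SE 0.11, adjusted p = 2.76e-06), Pmaip1 by 1.19 (SE 0.18, adjusted p = 0.000353) and Bcl2 by 1.07 (SE 0.20, adjusted p = 0.00118). Bax was lower, at -1.75 (SE 0.12, adjusted p = 3.85e-06), and so was Bak1 below 2-fold, at -0.63 (adjusted p = 0.00265). The summed A1 paralogs differed by 0.25 (SE 0.30, adjusted p = 0.488) and Bcl2l11 by 0.05 (95% interval -0.24 to 0.34). The Bcl2 value fell under 2-fold without library 5 (0.74), without library 7 (0.9995), without both (0.70) and without the filter on low counts (0.93), and that of Pmaip1 without library 6 (0.98).

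The Gr-1hi and Gr-1lo libraries differed in composition, with TMM factors of 0.724 to 0.863 and 1.26 to 1.30, and the scaling sets the zero of these comparisons. Under scaling to total counts alone, the median log2 fold change of all genes was -0.99 in BM and -0.69 in SP, against -0.17 and -0.09 with TMM. The members called were then 1 higher and 4 lower in BM, and 2 higher and 2 lower in SP, and over all genes 13.2% higher and 47.3% lower in BM and 13.4% higher and 40.3% lower in SP. Mcl1 was then at 0.85 and Bcl2l1 at 0.92 in BM, still above the median gene by more than 1 log2 unit. With limma on quantile-normalized TPM, Mcl1 in BM was at 0.96 and also under 2-fold. Bax was lower under every scaling run, from -3.22 to -2.25 in BM and from -2.35 to -1.62 in SP over all alternatives.

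**Figure D4:**
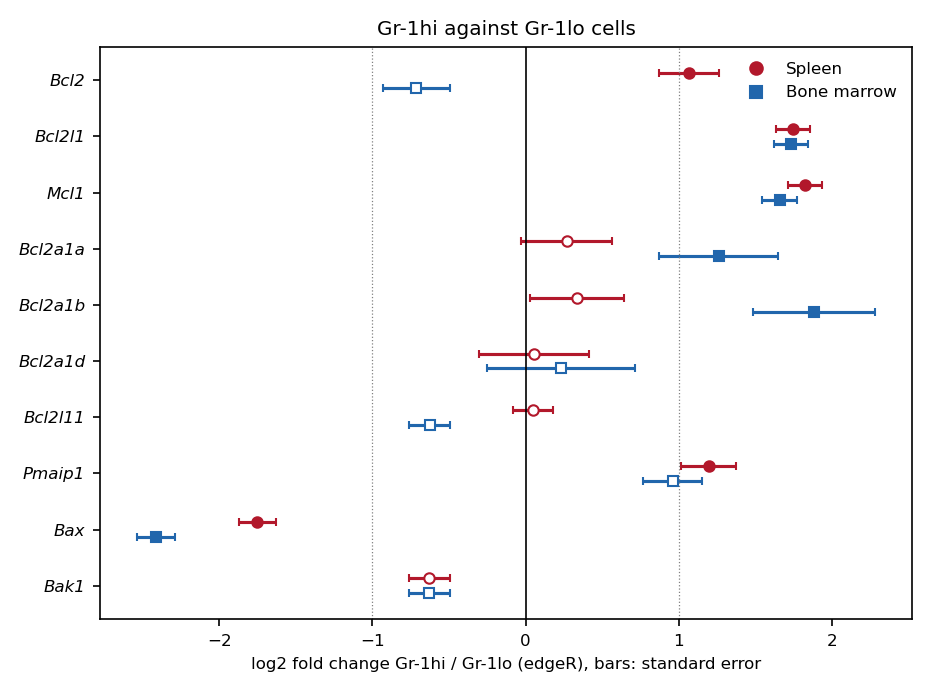
Log2 fold change of Gr-1hi over Gr-1lo cells (horizontal axis) for the 10 genes, in SP (red circles) and BM (blue squares), with standard errors from edgeR and TMM scaling. Filled symbols were called, at 2-fold (dotted lines) or more. Mcl1 and Bcl2l1 lie between 1.66 and 1.82 in both tissues, Bax lies at -1.75 and -2.41, and Bcl2 is on opposite sides of 0.

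Whether the Gr-1hi to Gr-1lo difference itself differed between the tissues was tested by the interaction term, which called 9.74% of all genes (7.74% higher and 2% lower in SP). Of the 10 genes, 1 was called. The signed Bcl2 difference was 1.78 log2 units higher in SP (SE 0.29, adjusted p = 0.00766), being 1.07 in SP and -0.71 in BM. Bcl2l11 (0.68, SE 0.18, adjusted p = 0.0408) and Bax (0.66, SE 0.17, adjusted p = 0.0336) passed below 2-fold, which makes 3 of the 10 at any fold against 16.4% of all genes. The Bcl2l11 and Bax differences were smaller in size in SP, at 0.05 against -0.63 and -1.75 against -2.41. For Mcl1 (0.16, adjusted p = 0.509), Bcl2l1 (0.01), Bak1 (-0.002) and Pmaip1 (0.23, adjusted p = 0.579) no difference between tissues was found. Bcl2a1b was at -1.55 (SE 0.50, adjusted p = 0.0707), and at -1.98 (adjusted p = 0.0169) without library 7. The 5 comparisons share libraries, so their values for a gene are not independent of each other.

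Levels of different genes were compared as TPM, which divide counts by exon length before scaling each library to 1000000. Mcl1 was at 1299 ± 147 TPM (SD, n = 2) in SP Gr-1hi, 909 ± 57.3 in BM Gr-1hi, 538 ± 0.372 in SP Gr-1lo and 530 ± 44.3 in BM Gr-1lo. Of the summed TPM of the 5 anti-apoptotic genes (Mcl1, Bcl2, Bcl2l1, Bcl2l2 and the A1 sum), Mcl1 made up 96.4% ± 0.099 in BM Gr-1hi, 94.3% ± 0.386 in BM Gr-1lo, 92.9% ± 0.375 in SP Gr-1hi and 83.6% ± 5.15 in SP Gr-1lo. It was the main transcript of this kind in every library, with a lowest share of 79.9% in library 8.

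Most of the rest was A1 in SP. The A1 sum took 4.70% and 5.39% in SP Gr-1hi and 9.23% and 17.0% in SP Gr-1lo, against 1.15% and 1.34% in BM Gr-1hi and 1.88% and 1.36% in BM Gr-1lo. All SP libraries were above all BM libraries, and the replicates of SP Gr-1lo were the farthest apart. These shares divide the counts assigned to the paralogs by their full exon length. Reads counted for Gm29094 or dropped as ambiguous would be missing from them, and how much this moves the shares was not tested. The ratio of Pmaip1 to the A1 sum below has the same limit. Bcl2 took 0.0607% to 0.374% of the sum, the least in BM Gr-1hi. Bcl2l1 took 1.38% to 2.27% in every library, and Bcl2l2, which encodes BCL-W, took 0.144% to 0.198% in Gr-1hi and 1.29% to 1.79% in Gr-1lo libraries.

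**Figure D5:**
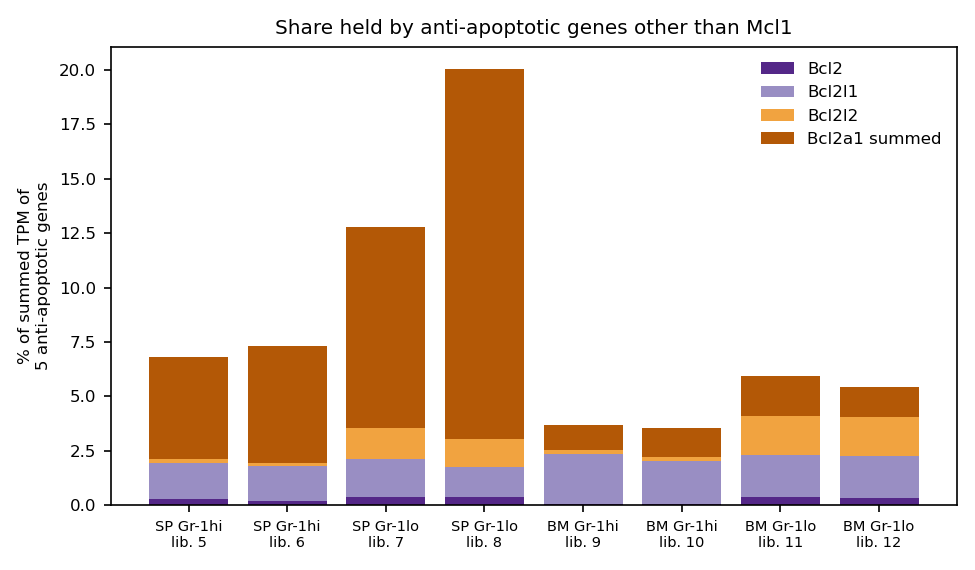
Share of the summed TPM of 5 anti-apoptotic genes (vertical axis, percent) held by the genes other than Mcl1, stacked, in each of the 8 libraries. The bars start at 0 and Mcl1 holds the rest of each library. The A1 sum is the largest segment in all 4 SP libraries, up to 17.0% in library 8, and Bcl2l1 is the largest in every BM library.

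Among the pro-apoptotic members, Bak1 was the most abundant per length, at 202 ± 30.3 and 178 ± 3.33 TPM in BM and SP Gr-1lo and 71.0 ± 7.69 and 78.2 ± 3.98 TPM in BM and SP Gr-1hi. Bax was at 86.5 ± 7.16 and 83.1 ± 0.855 TPM in Gr-1lo and 8.84 ± 1.02 and 16.9 ± 2.63 TPM in Gr-1hi of BM and SP. The log2 ratio of Bak1 to Mcl1 was -1.40 and -1.60 in BM and SP Gr-1lo, and -3.68 and -4.05 in BM and SP Gr-1hi. The log2 ratio of Bax to Bcl2 was 5.57 and 5.16 in Gr-1lo and 3.87 and 2.36 in Gr-1hi of BM and SP. By both ratios the Gr-1hi libraries held fewer effector transcripts per anti-apoptotic transcript, and no Gr-1hi library reached a Gr-1lo library.

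For the BH3-only gene Pmaip1, the ratio to Mcl1 differed between the tissues as well as between the classes. Pmaip1 was at 51.1 ± 5.90 TPM in SP Gr-1hi and 32.9 ± 0.0592 TPM in SP Gr-1lo, against 7.59 ± 2.12 and 7.17 ± 1.07 TPM in BM. Its log2 ratio to Mcl1, the protein that NOXA binds, was -4.67 and -4.03 in SP Gr-1hi and Gr-1lo and -6.93 and -6.21 in BM Gr-1hi and Gr-1lo. The ratio of Pmaip1 to the A1 sum was -0.59 and -0.33 in SP Gr-1hi, -0.18 and -1.11 in BM Gr-1hi, -0.79 and -1.80 in SP Gr-1lo, and -0.33 and -0.33 in BM Gr-1lo. The tissues overlapped among Gr-1hi cells, and among Gr-1lo cells both SP libraries were below both BM libraries. Bcl2l11 exceeded Bcl2 in every library, by 1.92 to 3.44 log2 units of TPM. The log2 ratio of Bcl2l11 to Mcl1 was -6.58 and -7.42 in SP and BM Gr-1hi, and -4.80 and -5.12 in SP and BM Gr-1lo. Its ratio to Bcl2l1 was -0.74 and -1.90 in SP and BM Gr-1hi, and 0.96 and 0.47 in SP and BM Gr-1lo. By these ratios to Mcl1 and Bcl2l1, every Gr-1hi library was below every Gr-1lo library, as for the effectors. These ratios are of transcripts and not of proteins.

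Of 14 other BCL2 family genes, 9 were tested, and Bcl2a1c, Bcl2l10, Bok, Bik and Hrk were too low. Between SP and BM, only Bcl2l14 was called, higher in SP Gr-1hi cells (4.38, adjusted p = 0.0162) at no more than 1.34 CPM, and none was called in Gr-1lo cells. Between the classes, Bcl2l2 was lower in Gr-1hi cells by -1.61 in BM and -1.55 in SP, Bcl2l12 by -2.25 and -1.41, and the BH3-only gene Bmf by -1.33 and -1.37. Bbc3, which encodes the BH3-only protein PUMA, was higher in Gr-1hi cells in BM (1.13, adjusted p = 0.000267) and at 0.59 in SP. Bcl2l14 and Bcl2l15, both under 2 CPM, were called lower and higher in BM. Bid, cleaved by caspase-8 to engage BAX and BAK, was at 54.6 to 104 CPM and Bad at 17.9 to 22.1 CPM, and neither reached 2-fold anywhere. Bcl2l13 was at 31.6 to 52.6 CPM and did not reach 2-fold either.

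Downstream of the mitochondrion, 1 of 15 tested genes of the apoptosome, caspases and inhibitors of apoptosis was called between tissues. This was the executioner caspase gene Casp6, higher in SP Gr-1hi cells (1.20, adjusted p = 0.0317). The comparisons of SP against BM called 15.5% of all genes in Gr-1hi cells and 4.06% in Gr-1lo cells. At any fold, 5 of the 15 passed in Gr-1hi cells against 34% of all genes, and 1 in Gr-1lo cells against 5.58%. Between the classes, 3 were higher and 4 lower in Gr-1hi cells in BM, and 1 higher and 4 lower in SP. Over all genes, 24.2% were higher and 33.1% lower in BM, and 22.3% higher and 27.4% lower in SP. The lower genes in both tissues were Cycs, which encodes cytochrome c (-2.49 in BM and -2.11 in SP), Htra2 (-1.98 and -1.65), Casp6 (-2.96 and -1.78) and the mitotic gene Birc5, or survivin (-2.54 and -2.64). Birc3, which encodes cIAP2, was higher in both (1.05 and 1.01), and Casp9, which encodes the initiator caspase of the apoptosome, was at 1.09 in BM and 0.81 in SP.

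Of 9 death receptor genes, Tnfrsf10b, a TRAIL receptor gene at no more than 4.31 CPM, was called higher in SP Gr-1hi cells (1.11, adjusted p = 0.0475) and none was called between the tissues in Gr-1lo cells. Those comparisons of SP against BM called 15.5% and 4.06% of all genes. Between the classes, 4 were higher and 2 lower in Gr-1hi cells in each tissue. Over all genes, 24.2% were higher and 33.1% lower in BM, and 22.3% higher and 27.4% lower in SP. Fas (2.53 in BM and 1.98 in SP), Tnfrsf1a (1.20 and 1.25), the caspase-8 inhibitor gene Cflar (1.45 and 1.10) and Tnfrsf10b (1.86 and 2.65) were higher, and the adaptor gene Fadd (-2.17 and -1.86) and Ripk3 (-2.60 and -1.68) were lower.

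Pmaip1 is a p53 target, and further targets were listed with Trp53. Of the 8 tested, 2 were called higher in SP Gr-1hi cells, Aen (2.44, adjusted p = 0.000583) and Zmat3 (1.89, adjusted p = 0.00142). That comparison called 14% of all genes higher, and the median of the 8 was 0.10 against 0.03 over all genes. Below 2-fold, Trp53 was higher (0.43, adjusted p = 0.0111), and Trp53inp1 (-0.42, adjusted p = 0.0151) and Sesn2 (-0.36, adjusted p = 0.0266) were lower. None was called in SP Gr-1lo cells, where Pmaip1 was at 2.26. Between the classes, 3 were higher and 4 lower in Gr-1hi cells in each tissue. Over all genes, 24.2% were higher and 33.1% lower in BM, and 22.3% higher and 27.4% lower in SP. Trp53inp1 (4.03 in BM and 3.18 in SP), Sesn2 (3.13 and 2.56) and Mdm2 (1.62 and 1.23) were higher. Cdkn1a (-3.78 and -3.37), Aen (-4.70 and -1.93), Zmat3 (-2.96 and -1.33) and Trp53 itself (-1.71 and -1.18) were lower.

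For Pmaip1, the A1 sum and Bax, the members of widest range when the 3 paralogs count as 1, the genes with the most similar profile were sought over the 8 libraries by Pearson's r of log2(CPM + 1), among genes with a mean of at least 10 CPM, as a description. The closest to Pmaip1 were the B cell gene Cd22 (r = 0.986) and the lymphocyte GTPase genes Gimap3 (0.984) and Gimap6 (0.979). The closest to the A1 sum were the NF-κB target Tnfaip3 (0.970) and the haemoglobin genes Hba-a2 (0.965) and Hba-a1 (0.965). The closest to Bax were Ctsz, which encodes a cathepsin (0.999), Fubp3 (0.999) and Gm45808 (0.999), the last of which shares exon bases with Bax. With 4 groups of 2 libraries, such values reflect little more than the 4 group levels.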

How the data were processed

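According to the methods and labels, stranded poly(A) libraries were sequenced as 101-base paired reads, checked with FastQC, aligned to GRCm38 with STAR and counted per gene with featureCounts. The deposited table holds raw counts, with no normalization by the authors, for 54188 genes and 8 libraries. Groups were taken from the labels. The members, gene lists and tests were chosen with earlier results of these data known. The test was the quasi-likelihood test of edgeR 4.0.16, run in R 4.3.3 (filterByExpr, TMM, robust quasi-likelihood fit over all 8 libraries, Benjamini-Hochberg adjustment over 17650 genes). A call needed an adjusted p of at most 0.05 and at least 2-fold. Standard errors were taken from the F statistic. With 2 libraries per group there were 4 residual degrees of freedom, and p-values measure the spread between these libraries only. TPM used GENCODE M21 exon lengths, found for 53947 genes. Named genes were the 10 members, the pathway genes called in at least 1 comparison at 5 CPM or more, all further family members, the 2 markers of a cell type with the most CPM in any library and the closest profiles. Tnfrsf10b, outside that rule, was named after its values were seen, to complete a count. The analysis was tested on simulated counts. Alternatives were other scalings, no filter, DESeq2 1.42.0, limma 3.58.1 on log2 quantile-normalized TPM, 4-library fits, other thresholds and leaving out libraries. Total-count scaling and the sums with Gm29094 and Gm45808 were chosen after seeing the data. Some genes of the lists are not reported here by name.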

Additional observations from a re-analysis of the deposited data

Results flagged for a closer look

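The difference between Gr-1hi and Gr-1lo cells was not the same in the SP and BM for 3 of the 10 genes, by edgeR's interaction test at any fold, a rule that called 16.4% of all genes. The signed log2 difference was higher in SP by 1.78 for Bcl2 (adjusted p = 0.00766), by 0.68 for Bcl2l11 (adjusted p = 0.0408) and by 0.66 for Bax (adjusted p = 0.0336). It was 1.07 in SP and -0.71 in BM for Bcl2, 0.05 and -0.63 for Bcl2l11, and -1.75 and -2.41 for Bax. For Bcl2l11 and Bax the difference was thus smaller in size in SP. The Bcl2 call was made under all 15 alternatives, with values from 1.17 to 2.00. For Bcl2l11 the adjusted p reached 0.229 and for Bax 0.184 under an alternative.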

How the results depend on the processing

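Of 894 values of single genes under alternatives, 795 kept their direction and call, 22 lost a call, 23 gained one and 54 changed sign, none of them a called value. The counts of members called moved by over 1.5 times as follows. In BM, 9 members passed at any fold, and 0 at more than 8-fold and an adjusted p below 0.01, as in SP, where the same rule also gave 0. The interaction called 3 without a filter or at any fold, 2 with DESeq2, 2 without libraries 5 and 7, and 1 to 2 when 1 library was left out. Leaving out 1 library gave 5 to 6 calls for SP against BM in Gr-1hi cells, 4 in Gr-1lo cells, 4 to 6 between classes in BM and 4 to 5 in SP. Tissue calls of Bcl2 (Gr-1hi cells), Bcl2a1a, Bcl2a1d and Pmaip1 held under every alternative. Bcl2l11 fell under 2-fold with limma (0.77), without library 5 (0.87) or 10 (0.87), and without libraries 5 and 7 (0.96). Between classes in SP, Bcl2 was at 0.70 without libraries 5 and 7 and at 0.47 under total-count scaling.

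Changes of sign were as follows, and the cause was not tested. For SP against BM in Gr-1hi cells, Bcl2l1 was at 0.0097 with upper-quartile and 0.14 with total-count scaling, and Bak1 at 0.082 with the latter. In Gr-1lo cells, Bax was at -0.055 with RLE scaling and DESeq2, -0.0073 with limma, -0.00070 with total-count scaling and -0.017 with Gm45808. With 1 library left out, Bax there ranged from -0.092 to 0.11, Bcl2l1 from -0.18 to 0.021, Mcl1 from -0.012 to 0.19 and Bak1 from -0.28 to 0.054.

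Between classes in BM, Bcl2a1d was at -0.58 with total-count scaling and -0.13 to 0.64 with 1 library left out. In SP, total-count scaling gave -0.33 for Bcl2a1a, -0.26 for Bcl2a1b, -0.54 for Bcl2a1d, -0.35 for their sum and -0.55 for Bcl2l11. Without libraries 5 and 7 these were -0.0088, -0.12, -0.39, -0.16 and -0.21, and with 1 library left out they ranged from -0.15 to 0.83, -0.12 to 0.95, -0.42 to 0.74, -0.21 to 0.86 and -0.12 to 0.15. Without a filter, Bcl2a1d was at -0.084 and Bcl2l11 at -0.083.

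For the interaction, Bcl2l1 was at -0.0021 with RLE scaling, -0.0013 with DESeq2, -0.011 without a filter and -0.18 to 0.11 with 1 library left out. Bak1 was at 0.037 with upper-quartile scaling, 0.21 with total-count scaling, 0.10 with limma and -0.23 to 0.16 with 1 library left out. Bcl2a1d was at 0.043 with total-count scaling and -0.63 to 0.53 with 1 library left out, Pmaip1 at -0.11 with limma and -0.11 to 0.42, and Mcl1 at -0.022 to 0.26. A group reduced to 1 library was assumed to vary like the others. No paired analysis was possible because the groups share no replicate numbers. The interaction could not be fitted on 4 libraries. With 2 libraries per group, and with 26 to 87 counts for a paralog in a BM library, small differences were not detectable.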
